A study of Canis lupus familiaris with 34 samples.

Results

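The lines described here are 3 canine osteosarcoma cell lines in which the transcript of MTAP was near the lowest levels of the array, out of 24 lines grown from primary tumours. They were chosen by the measured MTAP level: the probe set of MTAP with the higher mean had to lie below 4 on the log2 scale, and the 20 lines above 8 served as the comparison. The 1 primary line between those limits was left out. The whole series held 34 arrays from 31 dogs, among them 3 lines derived from metastases and 6 pieces of frozen tumour tissue. Transcript levels were measured on a canine expression array, and both line arrays of OSCA_71 were averaged, which left 33 columns. Levels below are log2 intensities, and a difference is the silent mean minus the expressing mean on that scale.

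The silent lines came from 3 dogs. OSCA_29 was from a Rottweiler with the sex label F and a diagnosis age label of 6.81. OSCA_71 was from a Golden Retriever with the sex label FS and an age label of 6.72. Primary line 23 was from a dog whose breed is spelled German Shephard in the labels, with the sex label MC and an age label of 9.3. The 20 MTAP-expressing lines came from 9 Rottweilers, 6 Golden Retrievers, 1 Alaskan Malamute, 1 German Shepherd, 1 Great Pyrenees, 1 Mastiff and 1 dog of unknown breed, with age labels of 2 to 11.19 in the 18 dogs that had one. Their sex labels were F in 3, FS in 4, M in 4, MC in 8 and none in 1. No source used here states the age unit. All lines of both sets are labelled as lines of primary osteosarcoma, each from its own dog. The treatment label, which refers to the dog, is SOC for OSCA_71. For OSCA_29 and primary line 23 it is SOC with an asterisk, for a dog that died before chemotherapy ended. The abbreviation is not spelled out, and the treatment labels of the expressing lines are not given here. Titles carry 1 of 3 prefixes. OSCA_29 and 17 expressing lines carry prefix 2, and the other 3 expressing lines carry prefix 1. OSCA_71 has an array under prefix 2 and an array under prefix 3, and primary line 23 carries prefix 3, which no expressing line has.

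MTAP encodes methylthioadenosine phosphorylase, which cleaves the by-product of polyamine synthesis and returns its parts to methionine and adenine. In human tumours the gene is often deleted together with its neighbours CDKN2A and CDKN2B, which encode inhibitors of the G1 cyclin-dependent kinases, and a cluster of type I interferon genes lies on the other side. In human cells without MTAP its substrate builds up and partly inhibits PRMT5, an arginine methyltransferase. For these reasons the genome neighbours of MTAP, the cell cycle, interferon genes and methionine-linked pathways are given in that order.

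MTAP stood at 1.84 in OSCA_29, 1.70 in OSCA_71 and 1.55 in primary line 23. In the 20 expressing lines it lay between 8.79 and 11.51 with a median of 10.20. The 2 arrays of OSCA_71 read 1.68 and 1.72. The silent lines were far below each expressing line, and the nearest line above them was the 1 left out, primary line 4, at 7.93. These values chose the groups and are given without a test.

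The other MTAP probe set showed the same split without having been used for it. It read 2.61, 2.06 and 1.64 in OSCA_29, OSCA_71 and primary line 23, against 7.16 to 10.56 in the expressing lines, and 5.92 in primary line 4. The metastatic lines stood at 10.13 to 10.22 on the first probe set. Dog 22, the source of OSCA_71, also gave a piece of snap-frozen tumour, in which MTAP stood at 9.12. Its line at 1.70 and its tissue at 9.12 are thus far apart. In tissue, fewer cells of a type and less RNA per cell cannot be told apart. The plot of MTAP levels shows the 3 silent lines apart from the other primary lines on both probe sets.

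**Figure D1:**
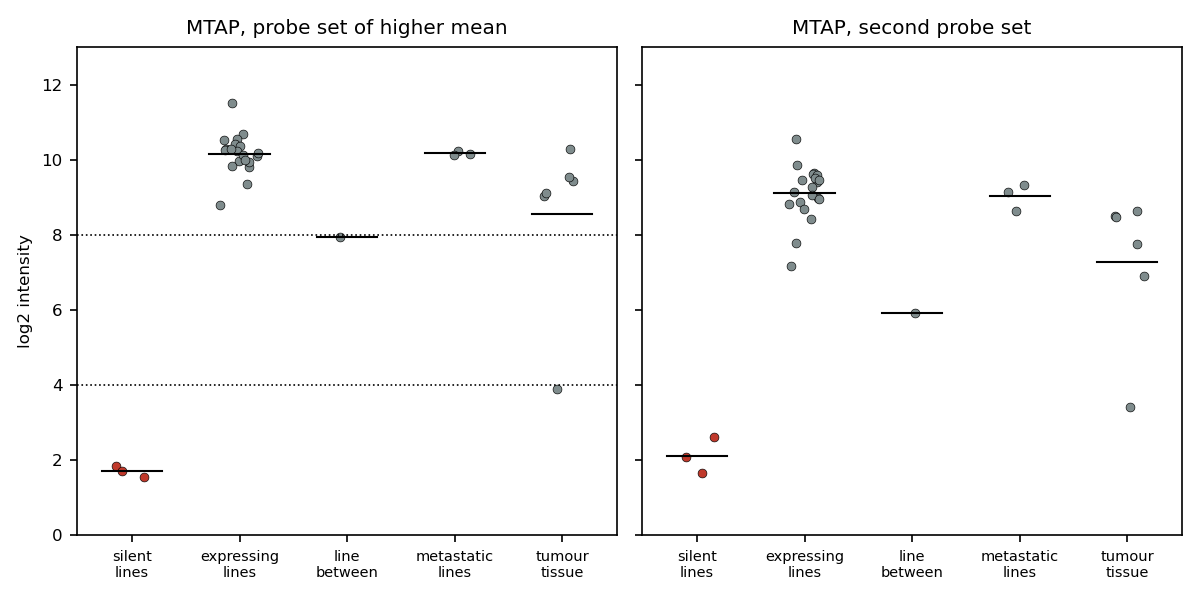
MTAP log2 intensity (y axis) on its 2 probe sets, by group (x axis): silent primary lines, expressing primary lines, the primary line between, metastatic lines and tumour tissue. Points are lines or tissues, horizontal bars are group means, and dotted lines mark the limits of 4 and 8; the silent lines stand at 1.55 to 1.84 on the first probe set and the expressing lines at 8.79 to 11.51.

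Across the array 7848 genes other than MTAP were tested between the 3 silent and the 20 expressing lines. In limma with Benjamini-Hochberg adjustment over all of them, 980 genes (12.5% of those tested) had an adjusted p under 0.05 and are called changed. Of these, 644 were higher (8.21%) and 336 lower (4.28%) in the silent lines, while 2462 fell under 0.05 before adjustment. The median difference over all genes was 0.11. The count leaned on OSCA_71 and primary line 23: it was 294 without OSCA_71, 165 without primary line 23 and 948 without OSCA_29. It was 1576 without primary line 6 and 1510 without primary line 25, which are expressing lines.

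A proliferation measure and the title prefix moved with the split, and their part in the counts that follow was not tested beyond the fits given here. The mean level of 32 genes of the G2 and M phases was 8.73 in OSCA_29, 9.70 in OSCA_71 and 9.67 in primary line 23, against 3.49 to 9.49 with a median of 6.36 in the expressing lines. OSCA_71 and primary line 23 ranked 1 and 2 of the 23 lines, and OSCA_29 ranked 6. With this mean as a covariate, a setting chosen after the data were seen, 22 genes were called (0.28%), 21 of them among the 980 and in the same direction, with 1097 at an unadjusted p under 0.05. On arrays of title prefix 2 alone, which leaves 2 silent and 17 expressing lines, 204 genes were called (2.6%). Of these, 144 were shared, which is 70.6% of the smaller and 14.7% of the larger set.

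Array quality measures showed no difference that passed a test. The column median intensity on the linear scale was 8.38 ± 0.13 (SD, n = 3) in silent and 8.35 ± 0.13 (n = 20) in expressing lines (two-sided exact permutation p = 0.697). The actin 3′ minus 5′ difference, which grows as RNA degrades, averaged 1.42 ± 0.97 and 1.44 ± 1.00 in the same groups (exact permutation p = 0.97). The GAPDH difference averaged 3.10 and 3.08 (exact permutation p = 0.892). The smallest p that 1771 splits allow is 0.0006, and 0.97 was the adjusted value of each.

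The neighbourhood of MTAP on chromosome 11 was read from the gene order of the RefSeq annotation of assembly UU_Cfam_GSD_1.0. No source used here names the genome build behind the array, so order is given and no position. Among the 80 protein-coding genes within 40 places of MTAP, 45 had a named probe set and 25 passed the filter on dim probe sets. Of the 25 tested, 4 were called (16.0%, beside 12.5% of all genes in either direction). All 4 were lower in the silent lines and 0 were higher, beside 4.28% and 8.21% of all genes. In all, 16 of the 25 had lower means in silent lines, and their median difference was -0.28, beside 0.11 for all genes. Those not called ranged from -1.18 to 0.91.

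The neighbour with the largest difference was HACD4, the 22nd gene on the side of the interferon cluster. HACD4 encodes a dehydratase of very long chain fatty acid elongation. It read 8.28 in OSCA_29, 3.19 in OSCA_71 and 5.75 in primary line 23, against 7.02 to 11.96 with a median of 9.98 in expressing lines. OSCA_71 and primary line 23 were below each expressing line, whereas OSCA_29 lay inside their range. The difference was -4.14 (SE 0.83, limma adjusted p = 0.0054), and it was not called without OSCA_71 (-2.86, adjusted p = 0.075) or on title prefix 2 alone (-3.66, adjusted p = 0.0503). Both other HACD4 probe sets gave differences of -4.00 and -3.79. The OSCA_71 arrays differed for this gene, at 4.45 under prefix 2 and 1.94 under prefix 3, both lower than the lowest expressing line.

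The other 3 called neighbours differed by less, and CHMP5 among them had the smallest adjusted p of the 4. CHMP5, a subunit of the membrane-sorting complex ESCRT-III, read 9.95, 10.29 and 9.86 in OSCA_29, OSCA_71 and primary line 23, against 10.27 to 11.59 in expressing lines. Only OSCA_71 touched that range, and the difference was -1.08 (SE 0.20, limma adjusted p = 0.0037). CNTLN, a centrosome protein, read 5.90, 4.72 and 5.18 in the same lines, against 4.90 to 7.72, for a difference of -1.49 (SE 0.41, limma adjusted p = 0.025). RRAGA, a GTPase that passes amino acid signals to mTORC1, read 11.30, 11.60 and 11.13, against 11.20 to 12.48, for a difference of -0.78 (SE 0.22, limma adjusted p = 0.028). For CNTLN and RRAGA 1 silent line fell below each expressing line and the other two did not. CNTLN lost its call without OSCA_71 (-1.22) or primary line 23 (-1.45), RRAGA lost it without any 1 of the silent lines (-0.90 to -0.67), and CHMP5 kept it under each of those removals (-1.21 to -0.99, adjusted p of 0.0085 to 0.03) and on title prefix 2 alone (adjusted p = 0.025). With the G2/M mean as a covariate none of the 4 kept its call (adjusted p of 0.074 to 0.338).

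The measured genes closest to MTAP gave little signal in most lines. CDKN2A is the adjacent gene and was not analysed here, since no probe set in the annotation used carries its name. CDKN2B, the next gene, read 1.49, 1.30 and 1.63 in OSCA_29, OSCA_71 and primary line 23, against 1.38 to 3.70 with a median of 2.19 in expressing lines. It was too dim for a test. IFNB1 was likewise dim, at 1.89 to 2.16 in the silent lines and at most 2.01 in the expressing ones. In all, 20 neighbours with a probe set were not tested for this reason, and a fall in them could not have been tested. The brightest probe set among them, of the gene 5 places away on the CDKN2A side, read 4.26, 2.35 and 4.76 in the silent lines. In expressing lines it read 1.97 to 6.745 with a median of 2.23. Other probe sets of that gene differed by 0.08 and -0.16. The nearest tested genes on the CDKN2A side were CAAP1, PLAA and IFT74, at 8, 9 and 10 places. Their differences were -0.29, 0.33 and -0.43, each with a limma adjusted p above 0.3. PLAA, which assists in ubiquitin-dependent protein turnover, read 9.90, 10.65 and 10.89, against 9.11 to 10.70 in expressing lines with a median of 10.31. OSCA_29 lay below that median, OSCA_71 inside the range and above it, and primary line 23 above each expressing line. On the other side MLLT3, a chromatin reader of transcription elongation, lies beyond HACD4 and read 3.94, 4.45 and 5.79, against 3.01 to 7.27 in expressing lines. In the plot of measured neighbours the 4 called genes carry their names.

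**Figure D2:**
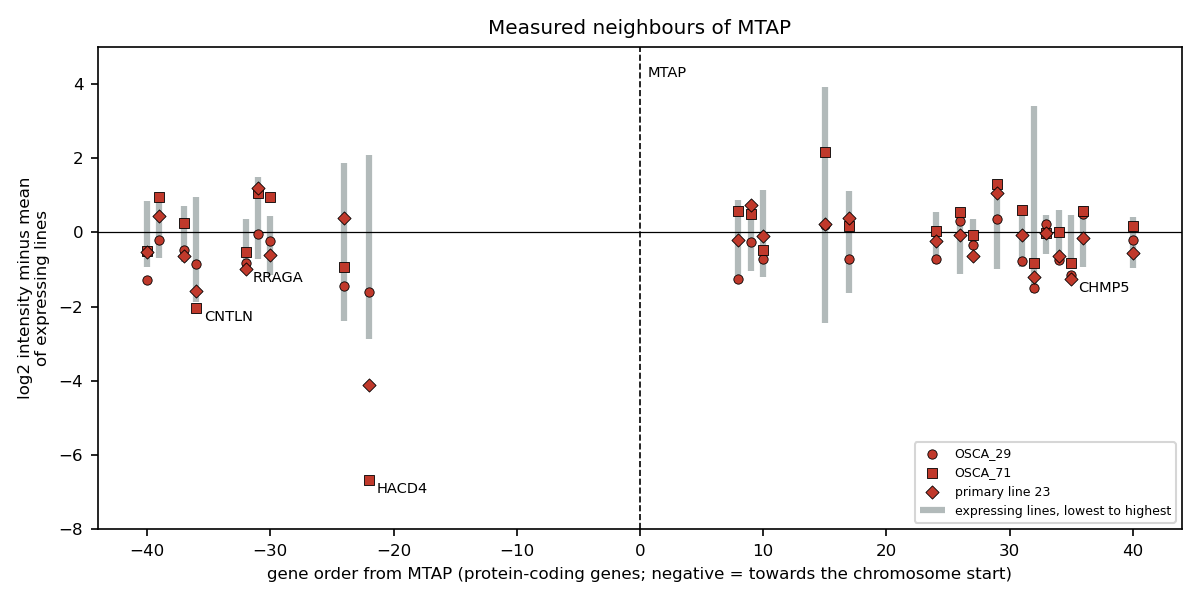
Measured genes within 40 places of MTAP by gene order (x axis) and the log2 intensity of each silent line minus the mean of the expressing lines (y axis). Symbols are the 3 silent lines and grey bars span the lowest to the highest expressing line. HACD4 has the deepest values, in OSCA_71 and primary line 23, and the genes nearest MTAP on either side have no tested value.

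Across the genome, 86 genes (1.1%) were higher in all 3 silent lines than in any expressing line, and 28 (0.357%) were lower; 83 and 23 of these were also called. The 10 called genes with the largest rise among them were DSCC1, KIFC1, NCAPD3, ORC6, CMTM2, MACROH2A2, ERCC6L, MTBP, C4H5orf34 and ATAD2. DSCC1 helps to load the replication clamp, KIFC1 is a mitotic kinesin, NCAPD3 is a condensin II subunit and ORC6 belongs to the origin recognition complex. ERCC6L resolves DNA threads in anaphase, and MTBP takes part in origin firing. The lack of overlap holds for the tested probe sets. A second KIFC1 probe set and a further ORC6 probe set overlapped between the groups, while the second NCAPD3 probe set did not.

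DSCC1 read 9.62, 9.66 and 9.53 in OSCA_29, OSCA_71 and primary line 23, against 2.50 to 9.14 with a median of 5.14 in the expressing lines. The silent lines were thus close together at the top of a wide range. The difference was 4.37 (SE 1.08, limma adjusted p = 0.014), and 1.73 with the G2/M mean as a covariate (adjusted p = 0.21). MACROH2A2, which encodes the histone variant macroH2A2, behaved in another way. It read 7.15, 6.38 and 7.15, against 1.93 to 4.83 with a median of 3.43, so that it was over 5 in each silent line and in no expressing line. The filter on dim probe sets asked for 3 arrays over 5, which the silent lines alone could supply. This pattern and the call of MACROH2A2 are therefore not independent of the filter. The difference was 3.49 (SE 0.45, limma adjusted p = 0.0002), and 2.96 with the G2/M mean as a covariate (adjusted p = 0.0067). C4H5orf34, a gene without a well-defined role, read 6.31, 5.39 and 6.53, against 2.27 to 5.00, and kept its call with that covariate as well (2.22, adjusted p = 0.0067). It too was over 5 in no expressing line, so its calls are likewise not independent of the filter. MTBP read 8.23, 7.74 and 7.87, against 3.49 to 6.76, and was also called with the covariate (2.34, adjusted p = 0.046). The other 6 of the 10 were not called with the covariate, with adjusted p of 0.0505 to 0.643.

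MMP2, the gelatinase that cuts type IV and denatured collagen, had the largest fall among the genes whose groups did not overlap. It read 6.11 in OSCA_29, 5.38 in OSCA_71 and 5.41 in primary line 23, against 6.64 to 13.65 with a median of 12.68 in the expressing lines. The silent lines were below each expressing line. The lowest expressing lines were primary line 6 at 6.64 and primary line 25 at 8.53, and primary line 4, with its middle level of MTAP, stood at 3.54. The difference was -6.41 (SE 0.96, limma adjusted p = 0.0008), or 85.0-fold. It was -4.49 with the G2/M mean as a covariate (adjusted p = 0.011) and -6.43 on title prefix 2 alone (adjusted p = 0.012). A second MMP2 probe set gave -5.60, again without overlap.

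The other 9 lower genes named by the same rule were DHRS3, LUM, LPCAT2, GPR108, RILP, ANTXR2, HSD17B11, WDR48 and FAN1. DHRS3, a retinaldehyde reductase, read 3.19, 3.24 and 2.93, against 3.62 to 7.39 (difference -2.45, SE 0.71, limma adjusted p = 0.030). LUM, the collagen-binding proteoglycan lumican, read 13.27, 8.86 and 13.22, against 13.29 to 14.26. OSCA_71 alone was far below the others, and a second LUM probe set had OSCA_29 and primary line 23 inside the expressing range. The OSCA_71 arrays differed for LUM, at 10.88 under prefix 2 and 6.84 under prefix 3. The LUM difference was -2.12 with all lines, and -0.66 without OSCA_71, where it was not called (limma adjusted p = 0.119). WDR48, a cofactor of deubiquitinating enzymes, read 7.97, 8.29 and 8.56, against 8.94 to 10.33, and was called without any 1 of the silent lines (adjusted p of 0.0089 to 0.013). FAN1, a nuclease of DNA crosslink repair, read 8.38, 8.71 and 8.57, against 8.78 to 10.27. Second probe sets of WDR48 (-0.875) and FAN1 (-0.73) were also lower, but with overlap between the groups. GPR108, a Golgi membrane protein, read 7.69, 6.07 and 7.55, against 7.85 to 9.83, and was lower by 1.68 on a second probe set as well. The plot of the 20 genes shows narrow gaps for most of them and a wide one for MACROH2A2.

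**Figure D3:**
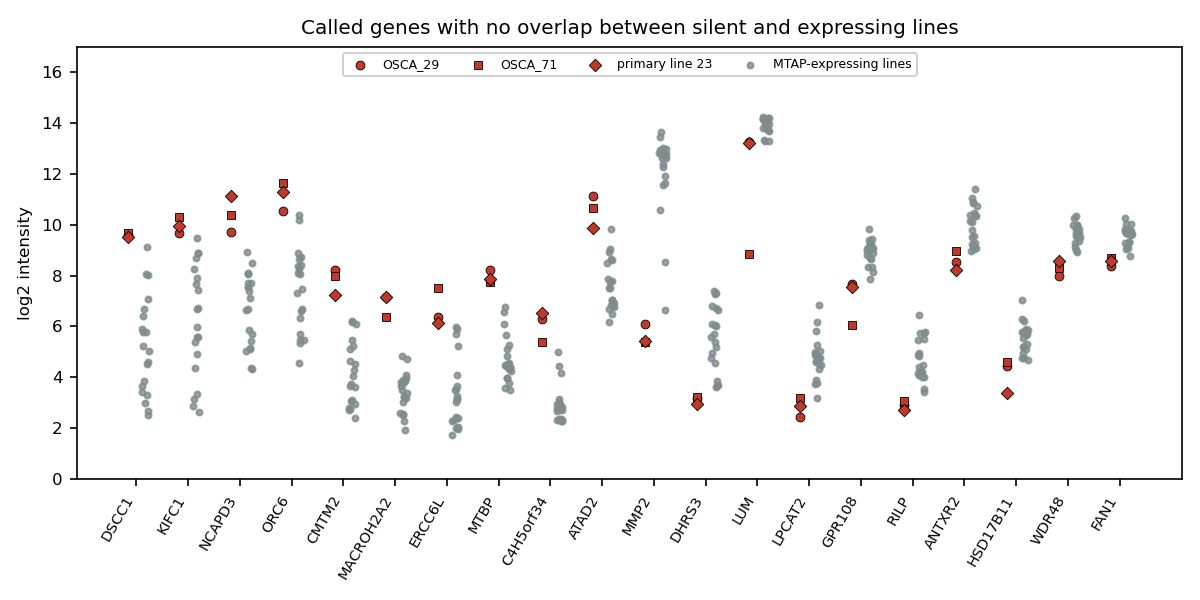
Log2 intensity (y axis) of the 10 called genes with the largest rise and the 10 with the largest fall among those without overlap (x axis). Red symbols are the 3 silent lines, left of the grey points of the 20 expressing lines. MMP2 stands at 5.38 to 6.11 in the silent lines, against a median of 12.68 in expressing lines, and LUM is set apart by OSCA_71.

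The genes called with the G2/M mean as a covariate were 18 higher (0.229%) and 4 lower (0.051%). Several of these were chosen for mention after their values were seen. ZC3H18, an RNA-processing factor, read 7.61, 8.77 and 7.39 in OSCA_29, OSCA_71 and primary line 23, against 5.26 to 6.98 in expressing lines. SKIL, a repressor of TGF-beta signalling, read 5.25, 6.54 and 6.47, against 2.59 to 4.66. As SKIL was over 5 in no expressing line, its calls are not independent of the filter on dim probe sets. CHRAC1, a histone-fold protein of chromatin remodelling, read 10.41, 10.22 and 10.07, against 8.38 to 9.65. None of these 3 overlapped between the groups, and each was also called on title prefix 2 alone (adjusted p of 0.0088 to 0.033). COMMD10, a trafficking protein whose gene lies on the chromosome of MTAP but outside the 40-gene window, read 9.29, 8.90 and 9.46, against 9.85 to 10.85. UNG, which removes uracil from DNA, read 5.16, 6.87 and 6.39, against 2.56 to 5.28. INSIG1, a brake on cholesterol synthesis, passed when the covariate was in the fit (-4.14, adjusted p = 0.037) but missed the threshold otherwise (-2.13, limma adjusted p = 0.156).

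Genes of the kinase and RB axis, which CDKN2A and CDKN2B inhibitors act on, were partly higher in the silent lines. Of 18 measured members of that list, 6 were called higher and 1 lower (beside 8.21% and 4.28% of all genes), with a median difference of 0.92. Cyclin E2 (CCNE2), which drives S-phase entry, read 6.84, 8.25 and 8.05 in OSCA_29, OSCA_71 and primary line 23, against 2.82 to 8.51 with a median of 4.00. The difference was 3.39 (SE 0.78, limma adjusted p = 0.01). E2F8, a repressor of the E2F family, read 3.32, 6.40 and 6.43, against 1.56 to 4.10. OSCA_29 lay inside the expressing range and the other two above it, and the difference was 2.85 (SE 0.54, limma adjusted p = 0.0042). As E2F8 was over 5 in no expressing line, its call is not independent of the filter on dim probe sets. The other called members were CCNE1 (2.62), CDKN2D (1.84), E2F4 (1.70) and CDK2 (1.50). RBL2, the RB relative p130 of resting cells, read 7.25, 7.20 and 6.60, against 6.87 to 9.89, for a difference of -1.59 (limma adjusted p = 0.026). CDK4, the kinase that CDKN2A and CDKN2B proteins inhibit, read 11.78, 12.69 and 12.36, against 10.72 to 12.58, and did not pass (0.69, adjusted p = 0.121). CDKN1A, the p53-induced inhibitor p21, differed by -1.77 (adjusted p = 0.146), and CDKN2C by 1.97 (adjusted p = 0.064). None of the list was called with the G2/M mean as a covariate, where its median was 0.55.

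Replication and mitosis genes had higher means in the silent lines throughout. All 34 measured genes of the G1/S and replication list had a positive difference and 12 were called higher, beside 8.21% of all genes, with a median of 2.15. All 32 measured G2/M genes had a positive difference and 9 were called higher, beside the same share, with a median of 3.08. On the tested probe sets, only ORC6 among both lists was higher in each silent line than in every expressing line. On a further ORC6 probe set OSCA_29 stood at 8.07, inside the expressing range of 3.30 to 8.29, while the remaining ORC6 probe set had no overlap. On its tested probe set ORC6 read 10.56, 11.66 and 11.28, against 4.57 to 10.38, for a difference of 3.71 (SE 0.92, limma adjusted p = 0.014). The replication licensing factor CDT1 read 7.66, 8.67 and 7.23, against 4.45 to 7.52 (2.32, limma adjusted p = 0.0058), and GINS2, of the replicative helicase, read 8.16, 9.28 and 7.75, against 4.45 to 7.78 (2.46, limma adjusted p = 0.0058). PCNA, the replication clamp, differed by 1.62 and CDC45 by 3.50. Among mitotic genes the kinase AURKA read 8.09, 9.52 and 9.91, against 2.69 to 8.82 with a median of 4.82 (4.05, limma adjusted p = 0.022). TTK, a spindle checkpoint kinase, differed by 3.91, the centromeric histone CENPA by 3.65, the kinase AURKB by 3.49 and the kinesin KIF4A by 3.16.

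Most calls in these lists were lost without OSCA_71 or primary line 23, while the list medians stayed positive and of similar size. The G2/M median was 3.08 with all lines, 2.84 without OSCA_71, 2.97 without primary line 23 and 3.47 without OSCA_29. The G1/S median was 2.15 with all lines, and 1.98, 2.10 and 2.53 under those removals. OSCA_71 was above every expressing line for 15 and primary line 23 for 17 of the 32 G2/M genes, whereas OSCA_29 was above them for none, 0 of 32. Of the 34 G1/S genes OSCA_71 was above every expressing line for 19, primary line 23 for 14 and OSCA_29 for 4. The matching counts over all genes are not given here for each line. Of the 980 called genes, 332 lay outside the expressing range, above or below, in OSCA_29, 549 in OSCA_71 and 623 in primary line 23. Over the 3 cell cycle lists 27 genes were called higher, 1 without OSCA_71, 2 without primary line 23 and 20 without OSCA_29. Over all genes the counts called higher were 644 with all lines, and 184, 100 and 601 under those removals. With the G2/M mean as a covariate, 0 of the G1/S genes were called, and their median was 0.17. The G2/M genes themselves cannot be read in that fit, since they form the covariate.

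Interferon-stimulated genes divided the silent lines. The mean of 31 measured members was 10.06 in OSCA_29, 5.06 in OSCA_71 and 5.55 in primary line 23, against 4.85 to 7.92 with a median of 5.36 in expressing lines. OSCA_29 was above each expressing line, and the other two were near the expressing median. OSCA_29 exceeded every expressing line for 27 of the 31 genes, OSCA_71 for 1 and primary line 23 for 1. The matching counts over all genes are not given here for each line. In the comparison, 3 of 31 were called higher and 0 lower (beside 8.21% and 4.28% of all genes), with a median difference of 1.09, or -0.18 without OSCA_29.

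ISG15, a ubiquitin-like modifier, read 13.99 in OSCA_29, 5.39 in OSCA_71 and 6.52 in primary line 23, against 2.67 to 11.46 with a median of 3.63. It did not pass (4.27, limma adjusted p = 0.059). The GTPase MX1, which blocks viral replication, read 12.87, 3.48 and 4.99, against 2.86 to 9.79 (3.10, adjusted p = 0.127). DDX60, a helicase of antiviral signalling, read 11.98, 2.95 and 3.26, against 2.46 to 4.40. It was called (2.96, limma adjusted p = 0.045), and its difference was -0.0005 when OSCA_29 was left out. HERC5, the ligase that attaches ISG15, read 9.02, 7.71 and 4.99, against 2.35 to 8.57 (3.37, limma adjusted p = 0.042). IFIT5, which binds foreign RNA ends, was the called member without overlap, at 9.33, 8.48 and 8.48 against 6.09 to 8.43 (1.01, limma adjusted p = 0.042). Neither HERC5 nor IFIT5 was called without OSCA_29 (2.48 and 0.72, adjusted p of 0.183 and 0.189).

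Without OSCA_29, 3 other members of the 31 were called lower, beside 347 of the 7848 genes tested. These 3 were named after their values were seen. The RNA sensor IFIH1 read 4.58 and 4.62 in OSCA_71 and primary line 23, against 5.19 to 8.51 in expressing lines (adjusted p = 0.041). SAMD9L, a restriction factor, read 4.89 and 8.51, against 8.30 to 10.42 (adjusted p = 0.012). The ligase TRIM21 read 5.15 and 4.11, against 5.12 to 6.70 (adjusted p = 0.022). In OSCA_29 the same genes stood at 9.91, 11.78 and 7.18, the highest of all lines in this comparison. The receptor subunit IFNGR2 was called lower with all lines, at 11.93, 11.43 and 11.30 against 11.36 to 13.15 (-1.08, limma adjusted p = 0.015), and was the called member of 8 measured receptor and signalling genes (beside 4.28% of all genes called lower). No type I interferon gene passed the filter, and 3 had a probe set.

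**Figure D4:**
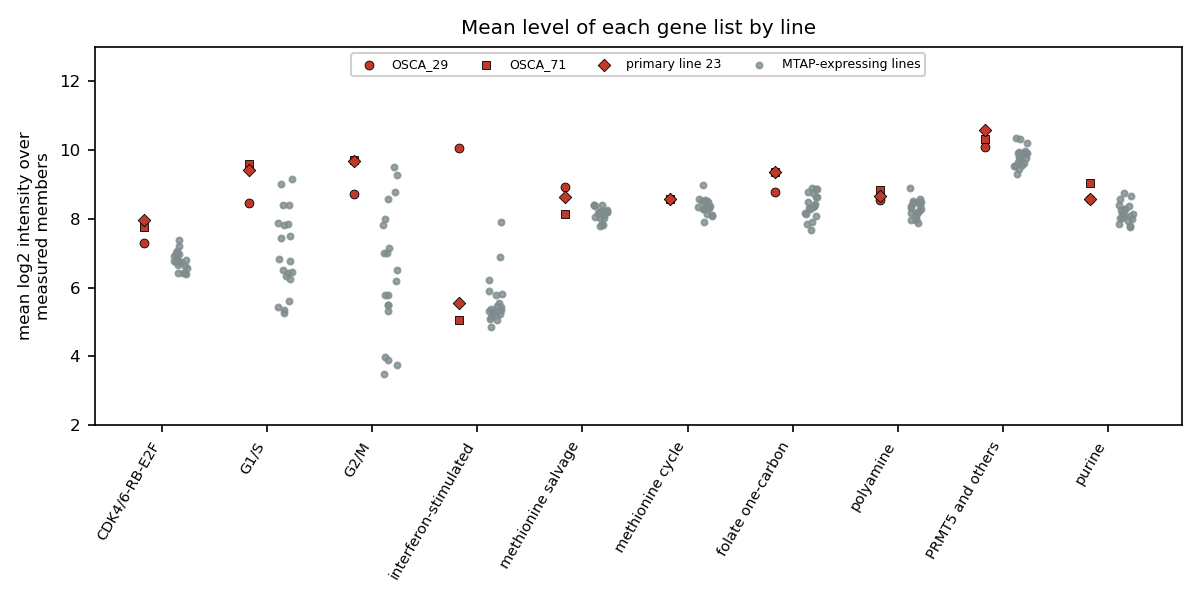
Mean log2 intensity over the measured members of each gene list (y axis), by list (x axis). Red symbols are the 3 silent lines, left of the grey points of the 20 expressing lines. OSCA_29 stands apart at 10.06 for interferon-stimulated genes, and OSCA_71 and primary line 23 lead for the G2/M list at 9.70 and 9.67.

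Genes of the methionine salvage pathway, in which MTAP works, had a share of calls near that of all genes. Of 9 measured members other than MTAP, 1 was called higher and 0 lower (beside 8.21% and 4.28% of all genes), with a median difference of 0.33. The called member was IL4I1, an amino acid oxidase, at 5.66, 3.26 and 3.64 in OSCA_29, OSCA_71 and primary line 23, against 2.50 to 3.48. It was over 5 in OSCA_29 alone, and its difference of 1.03 (limma adjusted p = 0.03) was not called without that line (0.29, adjusted p = 0.405). MRI1, which acts on the product of MTAP, read 5.47, 3.20 and 5.63, against 2.55 to 6.00 (0.83, adjusted p = 0.353). ENOPH1 differed by 0.45, ADI1 by 0.33 and the dehydratase APIP by -0.44, with limma adjusted p of 0.134 to 0.33.

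In the methionine cycle, MAT2A was higher in each silent line than in any expressing line. MAT2A makes S-adenosylmethionine from methionine. It read 11.77, 11.91 and 11.95 in OSCA_29, OSCA_71 and primary line 23, against 10.62 to 11.61 with a median of 11.27. The gap to the highest expressing line was small, and the difference was 0.64 (SE 0.17, limma adjusted p = 0.023). Both other probe sets of MAT2A were higher by 0.68 and 0.88, but with overlap. The difference was nearly as large without OSCA_71 (0.63, adjusted p = 0.093) or primary line 23 (0.61, adjusted p = 0.117), but was not called there. On title prefix 2 alone it was smaller, at 0.34 (limma adjusted p = 0.291). With the G2/M mean as a covariate it was 0.55 (limma adjusted p = 0.208). AHCYL1, a relative of S-adenosylhomocysteine hydrolase, read 10.43, 9.41 and 10.04, against 10.20 to 11.78 (-0.72, limma adjusted p = 0.045). AHCY itself read 10.80, 10.89 and 10.77, against 5.70 to 11.59, and did not pass (1.73, adjusted p = 0.098). Those 2, 1 higher and 1 lower, were the called members among 9 measured, beside 8.21% and 4.28% of all genes, and 0 of 5 methionine transporters were called.

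The folate one-carbon list had 4 called members of 15, all higher (beside 8.21% of all genes), with a median difference of 0.64. SHMT1, the cytosolic enzyme that moves a carbon from serine to folate, read 3.88, 5.53 and 6.34 in OSCA_29, OSCA_71 and primary line 23, against 1.80 to 4.04 with a median of 2.43. OSCA_29 lay inside the expressing range, at its upper end. The difference was 2.73 (SE 0.37, limma adjusted p = 0.0004), and it was called with the G2/M mean as a covariate (2.14, adjusted p = 0.0093) and on title prefix 2 alone (2.03, adjusted p = 0.014). SHMT1 was over 5 in no expressing line, so these calls are not independent of the filter on dim probe sets. ALDH1L1, which oxidises formyl-folate, read 3.81, 7.31 and 6.57, against 2.88 to 5.54 (2.52, limma adjusted p = 0.0042). MTHFD2L, a mitochondrial folate enzyme, differed by 1.61 and FPGS, which retains folate in cells, by 1.07. Neither kept its call under the removal of any 1 silent line, where MTHFD2L differed by 1.37 to 1.84 and FPGS by 0.78 to 1.30.

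Polyamine genes had 2 called members of 17, both higher, with a median difference of 0.35. That share is near the 8.21% of all genes called higher. DOHH, which completes the hypusine modification of eIF5A, read 4.48, 6.03 and 6.33, against 3.16 to 4.97 (1.67, limma adjusted p = 0.0075). As DOHH was over 5 in no expressing line, its call is not independent of the filter on dim probe sets. ATP13A3, a polyamine transporter, read 6.77, 8.29 and 6.70, against 3.65 to 7.17 (1.97, limma adjusted p = 0.021). AMD1, of polyamine synthesis, did not pass (1.14, limma adjusted p = 0.143). Nor did the spermidine synthase SRM, which releases the substrate of MTAP (0.99, limma adjusted p = 0.175).

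PRMT5 read 10.37 in OSCA_29, 10.84 in OSCA_71 and 10.15 in primary line 23, against 7.09 to 10.48 with a median of 8.80 in expressing lines. The silent lines lay at the top of the range and overlapped it. The difference was 1.75 (SE 0.50, limma adjusted p = 0.027), and 0.62 with the G2/M mean as a covariate (adjusted p = 0.427). RIOK1, a PRMT5 adaptor, read 9.12, 8.93 and 9.48, against 7.15 to 9.46 (1.16, limma adjusted p = 0.035). SNRPF, a splicing protein of the Sm ring, differed by 1.40 (limma adjusted p = 0.015), and WDR77, the constant partner of PRMT5, by 0.41 (adjusted p = 0.436). PRMT5, RIOK1 and SNRPF were the called members of 15, all higher (beside 8.21% of all genes), and the list had a median difference of 0.42. In the purine list 2 of 21 were called, both higher, which is near the 8.21% of all genes. PAICS, of purine synthesis, read 10.43, 12.69 and 12.12, against 9.17 to 11.84 (1.41, limma adjusted p = 0.040), and DCK, a deoxynucleoside kinase, read 5.10, 8.61 and 7.00, against 2.09 to 7.68 (2.69, limma adjusted p = 0.0498). APRT, which salvages the adenine that MTAP releases, read 10.91, 10.35 and 9.53, against 6.82 to 10.39, and did not pass (0.98, adjusted p = 0.184).

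Over the methionine, folate, polyamine, PRMT5 and purine lists, 13 genes were called higher. With the G2/M mean as a covariate the count was 1 (SHMT1, which was over 5 in no expressing line). The same count was 1 on title prefix 2 alone, 2 without OSCA_71, 2 without primary line 23 and 9 without OSCA_29. Calls over all genes fell in the same settings, so the drop is not particular to these lists. Of all genes, 644 (8.21%) were called higher, 18 (0.229%) with the covariate and 129 (1.64%) on title prefix 2 alone. Without OSCA_71, primary line 23 and OSCA_29 in turn there were 184, 100 and 601.

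**Figure D5:**
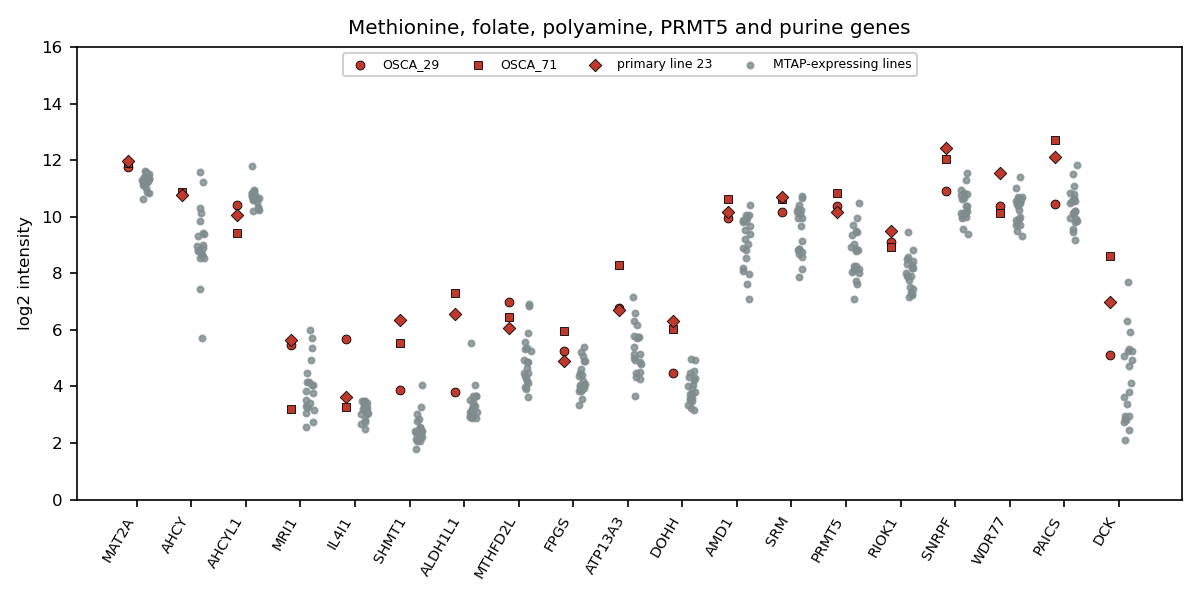
Log2 intensity (y axis) of named genes of the methionine, folate, polyamine, PRMT5 and purine lists (x axis). Red symbols are the 3 silent lines, left of the grey points of the 20 expressing lines. MAT2A lies above the expressing lines in each silent line by a small gap, and for SHMT1 and ALDH1L1 OSCA_29 is lower than the other silent lines.

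Called genes were unevenly spread over the chromosomes of the same RefSeq annotation, which placed 7777 tested genes. Chromosome 13 had 40 of 154 genes called higher and 0 lower, with a median difference of 0.72, the highest of the 39 chromosomes. DSCC1, MTBP, ATAD2, CHRAC1, PAICS and DCK lie on it. By line, its median difference was -0.05 in OSCA_29, 1.17 in OSCA_71 and 0.66 in primary line 23. Chromosome 16 had 1 of 140 higher and 25 lower (18.6% in either direction), with the lowest median, -0.51, and medians of -0.35, -0.95 and -0.30 in the same lines. Chromosome 11, which holds MTAP, had 3 of 218 higher and 26 lower, with a median of -0.30. Its share called in either direction, 13.3%, was near the 12.5% of all genes. Most of its calls were lower, whereas over all genes 8.21% were called higher and 4.28% lower. The tested neighbours of MTAP had a median of -0.28, close to that of the whole chromosome. By line, the chromosome 11 medians were -0.44 in OSCA_29, 0.00 in OSCA_71 and -0.40 in primary line 23. Genes along a chromosome are not independent of each other, and no test was made of these shares.

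None of the measured markers of other cells was called, though some list means leaned one way. Over all genes 12.5% were called, so lists this short would hold few calls at that share, and 0 called says little. Of 16 measured macrophage and MHC class II genes 0 were called, and the list means were 2.29, 2.31 and 2.54 in OSCA_29, OSCA_71 and primary line 23, against 2.26 to 4.24 in expressing lines. Endothelial genes had 0 of 8 called and means of 3.71, 3.45 and 3.38, against 3.02 to 4.52. The smooth muscle and pericyte list had 0 of 7 called, with means of 6.07, 6.82 and 7.79, against 4.59 to 8.82 with a median of 7.98, so each silent line was below the expressing median, and the median difference was -0.91. Bone matrix and osteoblast genes, the defining markers of the labelled tumour type, had 0 of 11 called. Their means were 7.34, 6.58 and 6.98, within the 5.41 to 8.14 of the expressing lines. Of 3 measured epithelial genes 0 were called, with a median difference of 1.32. Their means were 5.65, 3.47 and 5.42, each above the expressing median of 3.01 and inside the range of 2.16 to 6.88. Of the 3, 2 had higher means in the silent lines and the remaining gene, a keratin, had a lower one (-0.62). That keratin gene read 2.46, 2.73 and 2.33 in OSCA_29, OSCA_71 and primary line 23, against an expressing median of 2.60. The adhesion protein EPCAM, which was higher, read 8.84 in OSCA_29, 3.39 in OSCA_71 and 8.24 in primary line 23, against 1.89 to 12.19 with a median of 2.33 in expressing lines.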

How the data were processed

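The deposited intensity values, 1 per probe set and array, come from the authors, who ran GCRMA per the submitters' processing notes. No source used here states its version or settings. They are linear; log2 was applied with a floor of 1, which altered 0 values. Of 43035 probe sets, 175 were controls, 29254 had a single symbol in the platform annotation, 439 several and 13167 none. Probe sets over log2 5 on 3 or more of the 34 arrays were kept (18591, of which 14059 had a single symbol), and the one with the highest mean stood for each gene, which gave 7849 genes with MTAP. A gene high only in the silent lines could pass this filter through their arrays alone. MACROH2A2, C4H5orf34, SKIL, SHMT1, E2F8 and DOHH are among those over 5 in no expressing line. Their calls are not independent of the filter. Of the single symbols 27680 matched the RefSeq table of UU_Cfam_GSD_1.0, and 0 changed. Differences were tested by lmFit and eBayes of limma 3.58.1 under R 4.3.3, adjusting p by Benjamini-Hochberg over all genes, with a threshold of 0.05. Single array measures used exact permutation tests over lines. By the labels each line is from its own dog, and the number of arrays limits precision.

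The members and gene lists were chosen with earlier results of these data known. Genes to name were taken from the measured neighbours, the 10 called genes without overlap and with the largest difference in each direction, and from each list the called members and the 3 largest differences. This rule gave 122 genes, not all of which are named. The text names 89 genes, of which 19 were not given by the rule. These are CDKN2C, CDKN1A, CDK4, SAMD9L, IFIH1, TRIM21, ENOPH1, ADI1, APIP, AMD1, SRM, WDR77, APRT, ZC3H18, SKIL, CHRAC1, UNG, COMMD10 and INSIG1, picked once their values were known. Alternatives were other filters, probe set choices, normalization, array weights, covariates and the removal of single lines.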

Additional observations from a re-analysis of the deposited data

Results flagged for a closer look

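In the group of 6 tumour tissues, MTAP in tissue 4 stood far from the other five on both probe sets. It was 3.88 on the first probe set, where the other tissues lay between 9.04 and 10.29, and the gap to the nearest was 0.804 of the whole range, against a critical value of 0.625. On the second probe set it was 3.40, with a gap of 0.67 of the range. Chance flags about 1 in 20 such groups. Tissue 4 had a HACD4 level of 5.00, below the 8.03 to 9.82 of the other tissues. No tissue entered the comparison of the lines.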

How the results depend on the processing

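No paired analysis was possible because the replicate numbers follow accession order and each dog gave 1 primary line. In this paragraph the counts are, in order, all called genes (980), higher (644), lower (336), neighbours of MTAP (4), cell cycle genes higher (27), interferon-stimulated genes higher (3) and methionine-related genes higher (13). With title prefix as a covariate, all called genes were 209, higher 128, lower 81, neighbours 2, cell cycle 3 and methionine-related 2; primary line 23 is then the lone line of its prefix. On title prefix 2 arrays only they were 204, 129, 75, 1, 2 and 1 in the same order. With the G2/M list mean as a covariate, added after the data were seen, they were 22, 18, 4, 0, 0 and 1, with 0 interferon-stimulated genes. Array weights gave 1489 called, 560 lower and 42 cell cycle genes. The probe set with the largest interquartile range gave 188 lower and 1 interferon-stimulated gene, a split at log2 MTAP of 6 gave 205 lower, and a filter at log2 7 gave 7 methionine-related genes. Averaging primary lines 5 and 9 gave 1 interferon-stimulated gene and sex as a covariate 0. Leaving out 1 line at a time, silent or expressing, gave 165 to 1576 called, 100 to 999 higher, 65 to 577 lower, 1 to 4 neighbours, 1 to 45 cell cycle genes, 0 to 10 interferon-stimulated genes and 2 to 17 methionine-related genes. The interferon count was 10 without primary line 6 and 0 to 4 without any other line. Quantile normalization gave 936 called and moved the median of all genes to 0.06.

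Signs turned for genes that were not called, apart from DDX60, whose value was -0.0005 without OSCA_29 and 4.52 without OSCA_71. CAAP1 was 0.14 with the G2/M covariate, IFT74 0.58 on the probe set that varied most, SRM -0.16 with the G2/M covariate, and APIP 0.11 on prefix 2. WDR77 was -0.063 with prefix as a covariate, -0.21 on prefix 2 and -0.17 with the G2/M covariate. IFIH1 was 0.68 with prefix as a covariate and 0.37 on prefix 2, and TRIM21 0.33 and 0.53 in those settings. When 1 line was left out at a time, CAAP1 ran from -0.72 to 0.20, SAMD9L from -2.47 to 0.97, IFIH1 from -1.91 to 0.76, TRIM21 from -1.19 to 0.34 and WDR77 from -0.03 to 0.69. Of the 66 called genes that the text names, 10 kept their direction and call with the G2/M covariate, 21 on prefix 2, 23 with prefix as a covariate, 48 without OSCA_29, 22 without OSCA_71 and 22 without primary line 23. Under the other normalizations, filters, probe set choices and covariates listed above, 50 to 66 of them did, and at the log2 7 filter those that did not were no longer tested.

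With 3 silent lines, 2 of which have arrays under a prefix that no expressing line carries, prefix and MTAP split cannot be fully told apart. Dim probe sets limit what can be said of CDKN2B and the interferon cluster. The cause of these shifts was not tested.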
